A study of Homo sapiens with 12 samples.

Results

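Long intergenic non-coding RNAs (lincRNAs) are defined as transcripts from outside protein-coding genes that carry no long open reading frame, although annotated lincRNAs do not all meet this. The 269 described here are the genes annotated as lincRNA whose raw read count averaged at least 50 over the 12 libraries, out of 7533 lincRNAs and 58051 genes listed. Of all lincRNAs, 3456 had at least 1 count. SFTA1P and RMRP also averaged at least 50 counts and were left out by symbol, 2 genes in all. The mean count that chose the members is a measured value, so their level is a description and not a finding. Just outside the limit lay RP11-141B14.1, RP11-339B21.11 and LINC00880, with means of 49.25, 49.5 and 49.9 counts. Just inside it lay LINC00342, RP11-445P17.8 and RP11-332H14.2, with 50.1, 50.2 and 50.4.

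The cells were MDA-MB-231, a mesenchymal triple-negative breast cancer line. They received siRNA pools at 50 to 100 nM in 4 groups of 3 libraries. siControl received a non-targeting pool, siNELFA a pool against the pausing factor subunit NELFA, siYAP a pool against YAP1, and siNELFA+siYAP both pools. The labels give 48 h and 72 h after transfection, and the study's methods give 72 h and independent biological replicates. The library names number the other groups N1, N2 and N3, while those of siNELFA+siYAP all carry N1 with an index, so their spread may be technical and p-values against them then measure only the spread between these libraries.

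MALAT1 and NEAT1 are nuclear lincRNAs transcribed next to each other on chromosome 11. MALAT1 gathers at nuclear speckles, where splicing factors are stored, and NEAT1 is the RNA scaffold of paraspeckles, bodies built from RNA-binding proteins such as NONO and SFPQ. Other lincRNAs are hosts of snoRNAs or microRNAs, or are transcribed away from the promoter of a neighbouring gene. NELF holds RNA polymerase II just downstream of promoters, and YAP is a coactivator that works with the TEAD factors on promoters and enhancers. The comparison with siControl asks which lincRNAs differ when either protein's mRNA, or both, is reduced.

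Promoters, taken from RefSeq on GRCh38.p14 and covering 250 bases before to 50 bases after the gene start, were found for 139 of the 269 lincRNAs. They were searched on both strands for the TEAD motif GGAATG, the AP-1 motif TGANTCA, the TATA box TATAAA and 1 exact form of the serum response (CArG) motif. The AP-1 motif stood in 16 of the 139 (11.5%), against 7.71% of 35116 promoters. The TEAD motif stood in 17 (12.2%, against 14.0%), the TATA box in 8 (5.76%, against 11.5%) and the serum response form in 0 (against 0.0342%). The promoters below belong to MALAT1, to LINC00704 and RP11-24F11.5, which were lower after NELFA knockdown, and to CYTOR and MIR22HG, which were higher (with the block described further on). Capitals mark the AP-1 motif, which occurred in LINC00704, RP11-24F11.5 and CYTOR, and more than once in the first and the last. Of the 10 lincRNAs called with that block, 7 had a promoter, and these 3 held the motif, while MIR22HG, TRAM2-AS1, HIF1A-AS2 and RP11-115J23.1 did not. A match is a description of the letters and no evidence of binding.
MALAT1, chr11:65497488-65497787, plus strand: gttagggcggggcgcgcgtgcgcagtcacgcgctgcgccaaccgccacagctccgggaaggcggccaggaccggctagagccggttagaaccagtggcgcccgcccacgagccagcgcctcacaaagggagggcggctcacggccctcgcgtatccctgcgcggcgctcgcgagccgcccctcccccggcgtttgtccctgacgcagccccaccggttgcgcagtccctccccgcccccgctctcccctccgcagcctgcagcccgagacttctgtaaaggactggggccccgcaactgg
LINC00704 (RefSeq MANCR), chr10:4678021-4678320, minus strand: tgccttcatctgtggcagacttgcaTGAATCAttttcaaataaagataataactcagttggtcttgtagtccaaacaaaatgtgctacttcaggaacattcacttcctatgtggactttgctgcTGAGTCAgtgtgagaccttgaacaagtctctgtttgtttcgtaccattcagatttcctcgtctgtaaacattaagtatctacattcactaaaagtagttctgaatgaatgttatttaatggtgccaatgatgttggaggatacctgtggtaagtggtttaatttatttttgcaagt
RP11-24F11.5 (RefSeq LINC02009), chr3:46423618-46423917, minus strand: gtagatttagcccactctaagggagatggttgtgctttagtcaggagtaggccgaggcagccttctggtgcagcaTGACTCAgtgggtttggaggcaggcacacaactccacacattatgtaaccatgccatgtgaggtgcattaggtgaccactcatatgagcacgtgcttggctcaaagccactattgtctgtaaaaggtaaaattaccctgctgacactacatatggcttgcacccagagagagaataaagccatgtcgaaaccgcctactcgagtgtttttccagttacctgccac
CYTOR, chr2:87455177-87455476, plus strand: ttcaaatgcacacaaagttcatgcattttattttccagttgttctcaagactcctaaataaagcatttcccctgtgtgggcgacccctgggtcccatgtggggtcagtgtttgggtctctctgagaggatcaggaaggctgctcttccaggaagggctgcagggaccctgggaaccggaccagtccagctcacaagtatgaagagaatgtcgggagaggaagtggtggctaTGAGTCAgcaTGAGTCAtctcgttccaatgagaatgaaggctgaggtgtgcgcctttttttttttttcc
MIR22HG, chr17:1716161-1716460, minus strand: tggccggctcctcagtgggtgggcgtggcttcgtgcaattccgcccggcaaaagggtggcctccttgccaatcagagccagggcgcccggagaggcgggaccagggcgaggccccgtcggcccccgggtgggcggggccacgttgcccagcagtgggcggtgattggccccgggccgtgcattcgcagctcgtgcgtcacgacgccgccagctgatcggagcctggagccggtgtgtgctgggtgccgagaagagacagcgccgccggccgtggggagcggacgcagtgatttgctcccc

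The libraries held 9608145 to 18803104 counts. NELFA had 379 to 418 normalized counts in siControl and 332 to 505 in siYAP, against 106 to 149 in siNELFA and 95.0 to 123 in siNELFA+siYAP. YAP1 had 3696 to 4525 in siControl and 3702 to 4371 in siNELFA, against 564 to 691 in siYAP and 601 to 661 in siNELFA+siYAP. A normalized count here is the count scaled to the mean library by edgeR's TMM factors. The line's markers VIM, CD44 and ZEB1 were present at 750 to 1181, 575 to 1170 and 35.6 to 64.0 TPM, while SPARC reached only 9.42 TPM. Of the luminal and HER2 markers, ESR1, PGR and GATA3 had at most 2.53, 0.0687 and 4.36 TPM, and ERBB2 had 15.7 to 29.4 TPM. Of the epithelial markers, KRT8 and KRT18 stood at 128 to 161 and 126 to 177 TPM, EPCAM at 4.34 to 19.2 and CDH1 at no more than 11.97 TPM. PTPRC of leukocytes had at most 0.985 TPM, and COL1A1 and PDGFRA of fibroblasts at most 12.1 and 0.258 TPM. The replicate 1 libraries of siControl, siNELFA and siYAP stood apart from the other 9, so counts of calls are also given without them.

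The lincRNAs were an uneven group. Their median level was 5.11 TPM (a level corrected for transcript length and library size), 63 averaged at least 10 TPM and 15 under 1 TPM. In raw counts, 13 averaged at least 1000 and 132 at most 100. Of the 269 identifiers, 256 were found in GENCODE release 44 on GRCh38, with a median exon length of 3603 bases. A single exon block made up 78 of these genes. A protein-coding gene overlapped the span of 72. These include LINC00843, KANTR and AC093323.3, which release 44 itself types as protein-coding. Exons of 128 lincRNAs shared bases with another listed gene, 67 of them on the same strand, and 34 started within 1000 bases of the start of a protein-coding gene that runs the other way.

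MALAT1 had the highest mean level, 5412 TPM (median 2825, range 2230 to 17837 over 12 libraries). RP11-713D19.1, a 426-base transcript inside the span of SPDYA, followed with 1283 TPM, and NEAT1 with 419 TPM. The next 2 were CYTOR with 309 TPM (251 to 372) and MIR4435-2HG with 228 TPM (186 to 287), near-identical copies on chromosome 2 between which the counting may have split reads. NORAD, which binds Pumilio proteins and is induced by DNA damage, averaged 92.7 TPM, SNHG8 90.7, PVT1, the neighbour of MYC, 85.8, RP11-54H7.4 84.6 and SNHG25 55.9. SNHG25 ranged from 8.33 to 186 TPM, and its exons hold the snoRNA SNORA50C, whose reads made up 44.1% as many counts. Each lincRNA in this order overlapped the next in its range over libraries, except MIR4435-2HG and NORAD, whose ranges were apart.

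MALAT1 (ENSG00000251562) lies on chromosome 11 at 65497640 to 65508073, plus strand, as 1 exon block of 10434 bases. NEAT1 (ENSG00000245532) lies upstream of it at 65422774 to 65445540, plus strand, over 22767 bases. MALAT1 had 687003, 149848 and 118588 normalized counts in siControl replicates 1 to 3. It had 515638, 120031 and 106604 in siNELFA, and 490864, 140466 and 134445 in siYAP. In siNELFA+siYAP it had 122507, 120627 and 126000. Replicate 1 was far above the others in the first 3 groups, while the 3 double-knockdown libraries lay together with replicates 2 and 3.

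NEAT1 was likewise highest in the 3 replicate 1 libraries. It had 118246, 25486 and 22685 normalized counts in siControl replicates 1 to 3. It had 90717, 24727 and 19210 in siNELFA, and 97954, 20893 and 22244 in siYAP. In siNELFA+siYAP the values were 23511, 22488 and 23557. MALAT1 stood 5.12-fold above the mean of replicates 2 and 3 in siControl replicate 1, 4.55-fold in siNELFA and 3.57-fold in siYAP, and NEAT1 4.91-, 4.13- and 4.54-fold. In siNELFA+siYAP the ratios were 0.993 and 1.02. The ratio of MALAT1 to NEAT1 in a library ranged only from 4.85 in siNELFA replicate 2 to 6.72 in siYAP replicate 2, and the replicate 1 libraries did not stand apart in it.

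**Figure D1:**
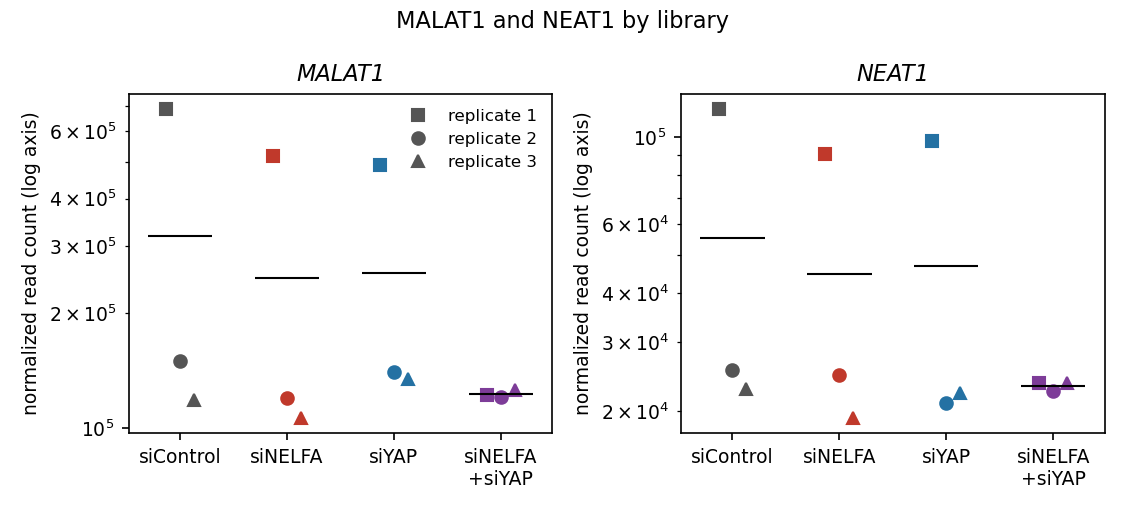
Normalized read counts of MALAT1 (left) and NEAT1 (right) on a log axis in the 12 libraries, by siRNA group, with squares, circles and triangles for replicates 1, 2 and 3 and a line for the group mean. Replicate 1 of siControl, siNELFA and siYAP lies at 490864 to 687003 for MALAT1, while the other 9 libraries lie at 106604 to 149848.

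The share of all counts that fell in the 269 lincRNAs moved with these genes. It was 4.11% to 5.66% in the 3 replicate 1 libraries and 1.26% to 1.63% in the other 9. MALAT1 and NEAT1 together made up 89.8% to 91.3% of the lincRNA counts in the former and 66.2% to 73.2% in the latter. Without these 2 genes the remaining lincRNAs took 0.433% to 0.521% of the remaining counts in the 3 libraries and 0.422% to 0.446% in the others. The annotation holds a second MALAT1 entry, a 95-base stretch on the same strand inside MALAT1, and it was shifted in the same libraries, by log2 2.59 in siControl, 2.24 in siNELFA and 1.28 in siYAP. In bulk RNA, more RNA per cell and more cells of a kind cannot be told apart.

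Replicate 1 differed from replicates 2 and 3 in other lincRNAs as well, and in both directions. A lincRNA was counted as shifted where replicate 1 lay more than 2-fold from the mean of replicates 2 and 3, in the same direction, in siControl, siNELFA and siYAP. By that rule 13 of the 269 (4.83%) were higher in replicate 1, against 5.4% of 18525 tested genes, and 25 (9.29%) were lower, against 4.22%. Among the 12971 genes averaging at least 50 counts, a background added after the data were seen, 4.35% were higher and 3.37% lower. Of the 13, SNHG18, RP11-563J2.2, RP11-356J5.12 and RP11-66B24.2 averaged only 12.8, 41.4, 42.2 and 43.9 counts over the other 9 libraries, so they reached 50 counts through the replicate 1 libraries in which they are high. Among the 265 lincRNAs that also averaged at least 50 counts over the other 9, 9 were higher (3.396%, against 3.90% of 12895 genes chosen in the same way) and 25 lower (9.43%, against 3.39%). The share higher was thus near the background, and the share lower was above it. The median shift of the lincRNAs was -0.06 in siControl, -0.23 in siNELFA and -0.18 in siYAP on the log2 scale, against -0.05, -0.02 and -0.02 over all tested genes. These libraries were singled out because they stood apart, so the counts are a description with no test.

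The largest shifts upward were those of SNHG18, LINC00996, RP11-563J2.2, LINC01411 and NEAT1, of which SNHG18 and RP11-563J2.2 are among the 4 that were members only through replicate 1. LINC00996, beside the GIMAP gene cluster on chromosome 7, had 754, 102 and 70.5 normalized counts in siControl, 727, 108 and 48.5 in siNELFA and 697, 111 and 47.1 in siYAP. It had 76.8, 97.5 and 54.8 in siNELFA+siYAP, and the 3 replicate 1 libraries of the first 3 groups were far above the other 9. Its neighbour GIMAP8 was shifted too, by a mean log2 of 2.46. SNHG18 had 232, 28.0 and 0 normalized counts in siControl and 0, 6.43 and 6.44 in siNELFA+siYAP, which is too few to give a level outside replicate 1. SEMA5A, which starts 95 bases away in the other direction, had a mean shift of 4.39. RP11-563J2.2 (GENCODE LINC02649) and LINC01411 had mean shifts of 3.13 and 2.72.

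The largest shifts downward were those of RP11-498C9.15, LINC01293, WI2-87327B8.2, RP4-564F22.5 and CH17-373J23.1. RP11-498C9.15, a single-exon gene on chromosome 17, had 25.9, 339 and 383 normalized counts in siControl, 82.2, 287 and 310 in siNELFA and 37.4, 324 and 281 in siYAP. In siNELFA+siYAP it had 295, 233 and 255, all above the replicate 1 libraries of the other groups. The other 4 had mean shifts of -2.60, -2.49, -2.46 and -2.24 on the log2 scale. Over 221 lincRNAs, the shift of the lincRNA and of its nearest protein-coding gene correlated across genes (Pearson 0.311, Spearman 0.272). LINC00843, KANTR and AC093323.3 were paired with themselves here, and pairs that overlap in the genome were not left out. All these points come from the same 9 libraries, and genes are not independent replicates.

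**Figure D2:**
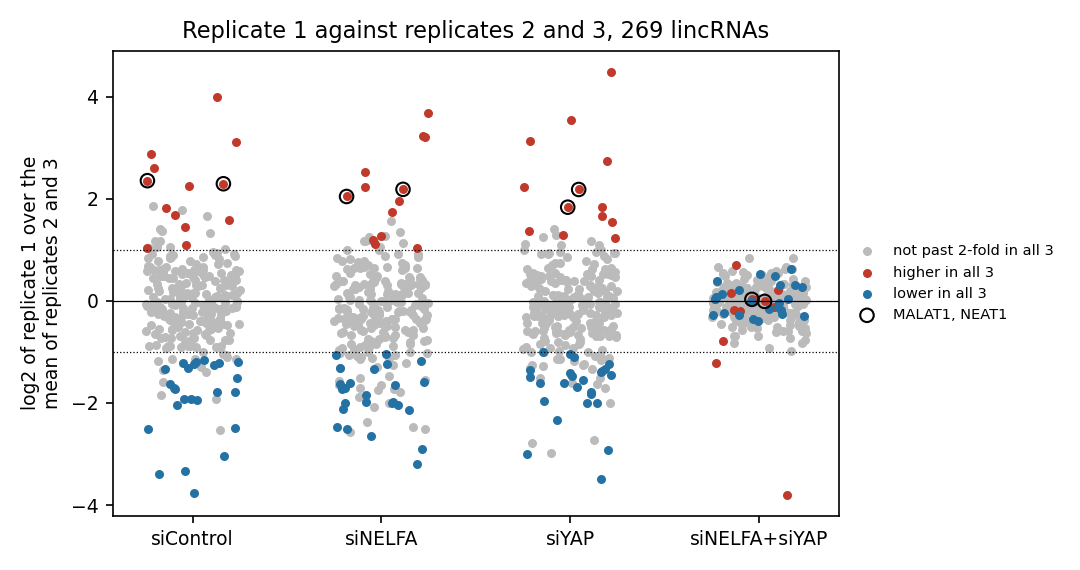
Log2 of replicate 1 over the mean of replicates 2 and 3 for the 269 lincRNAs (points, spread sideways at random) in the 4 siRNA groups, with dotted lines at 2-fold. Red and blue points are the 13 and 25 lincRNAs past 2-fold upward and downward in siControl, siNELFA and siYAP, and circled points are MALAT1 and NEAT1. In siNELFA+siYAP all points but those of SNHG18 and RP11-356J5.12 lie between the dotted lines.

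With all libraries and no block, no lincRNA passed an adjusted p of 0.05 in siNELFA against siControl (0 of 269, against 0.00564% of 17727 genes, edgeR's quasi-likelihood test with Benjamini-Hochberg adjustment). At a nominal p under 0.05 there were 4 higher (against 2.25% of all genes) and 7 lower (against 2.21%), together 4.09% against 4.46%, and DESeq2 called 1 (0.372%, against 0.158%), LINC00704. Same-numbered libraries of siControl, siNELFA and siYAP deviated together, so the fit was repeated with the replicate number as a block. A replicate 1 shift common to the groups can give this by itself, and differently numbered libraries were not compared. Whether numbers 2 and 3 also pair the libraries was therefore not tested. It called 10 lincRNAs (3.72%, against 5.21% of all genes), 6 higher (2.23%, against 2.76%) and 4 lower (1.49%, against 2.45%). At a nominal p the block gave 12 higher (4.46%, against 10.5%) and 38 lower (14.1%, against 9.78%), together 18.6% against 20.2%. The median log2 fold change of the lincRNAs was -0.07 in either fit, against 0.00 and 0.01 over all genes. The libraries of the groups did not overlap for 33 lincRNAs (12.3%, against 12% of 18525 genes). With replicate 1 left out of both groups and no block, 0 of 269 passed the adjusted threshold, against 0.0996% of 18077 genes.

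The block was also fitted with 1 replicate number left out at a time, which was added after the data were seen and leaves 1 residual degree of freedom for a gene. It called 35 lincRNAs without number 1 (13%, against 15.7% of all genes), 9 without number 2 (3.35%, against 3.56%) and 6 without number 3 (2.23%, against 3.65%). All 10 called with every number kept their direction. LINC00704, MIR22HG, RP11-160E2.6 and RP4-621F18.2 passed in each of these fits. CYTOR, HIF1A-AS2 and RP11-115J23.1 did not pass without number 2 or without number 3, CH17-373J23.1 did not pass without number 2 (adjusted p = 0.0598 by edgeR), and RP11-24F11.5 and TRAM2-AS1 did not pass without number 3 (adjusted p = 0.126 and 0.115 by edgeR). Their log2 fold changes moved by at most 1.42 times from the value with every number.

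Under the block MALAT1 did not pass in siNELFA. Its log2 fold change was -0.37 (SE 0.84, adjusted p = 1.00 by edgeR) without the block and -0.29 (SE 0.08, adjusted p = 0.0541 by edgeR) with it, and each siNELFA library was below the siControl library of the same number. That of NEAT1 was -0.31 (SE 0.80) without the block and -0.22 (SE 0.09, adjusted p = 0.180 by edgeR) with it. Leaving out siControl replicate 1 alone gave 0.89 for MALAT1 and 0.90 for NEAT1, leaving out siNELFA replicate 1 alone gave -1.49 and -1.34, and leaving out both gave -0.24 and -0.12. The unpaired sign therefore turns on which replicate 1 library is in the fit.

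LINC00704, known as MANCR, a lincRNA linked to mitosis in breast cancer cells, fell most under the block. It had 175, 254 and 215 normalized counts in siControl replicates 1 to 3 and 52.8, 111 and 80.1 in siNELFA. The siNELFA libraries were all below the siControl libraries. The log2 fold change was -1.42 with the block (SE 0.20, adjusted p = 0.00223 by edgeR) and -1.39 without it (SE 0.33, adjusted p = 1.00 by edgeR), and -1.28 with replicate 1 left out (adjusted p = 0.0813 by edgeR). DESeq2 without the block gave an adjusted p of 0.0412.

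The other lincRNAs that fell under the block were TRAM2-AS1, RP11-24F11.5 and RP11-115J23.1. TRAM2-AS1, which overlaps the start of TRAM2 on the opposite strand, had 58.4, 88.2 and 87.6 normalized counts in siControl and 14.1, 57.0 and 25.6 in siNELFA (log2 fold change -1.37 with the block, SE 0.33, adjusted p = 0.0297 by edgeR). The groups did not overlap, although the counts were low. TRAM2 itself had a log2 fold change of 0.34 in the same fit (adjusted p = 0.0448 by edgeR). RP11-24F11.5 (GENCODE LINC02009), near CCRL2 on chromosome 3, had 521, 251 and 254 in siControl and 318, 168 and 127 in siNELFA, the groups overlapped, and it was among the genes shifted upward in replicate 1. Its log2 fold change with the block was -0.76 (SE 0.16, adjusted p = 0.0189 by edgeR). RP11-115J23.1 (GENCODE LINC02742), on chromosome 11, had 221, 269.5 and 224 in siControl and 161, 173 and 118 in siNELFA, without overlap (log2 fold change -0.67 with the block, SE 0.18, adjusted p = 0.0470 by edgeR).

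The lincRNAs that rose under the block included microRNA hosts and genes that overlap other transcripts. MIR22HG, the host of miR-22, had 81.1, 200.3 and 264 normalized counts in siControl and 166, 364 and 462 in siNELFA. Each siNELFA library was above the siControl library of its number, while the groups overlapped (log2 fold change 0.89 with the block, SE 0.16, adjusted p = 0.00947 by edgeR). MIR22HG was also shifted downward in replicate 1. CYTOR, which promotes growth in several cancers, had 1247, 1463 and 1570 in siControl and 1874, 1705 and 2091 in siNELFA, without overlap (0.41 with the block, SE 0.11, adjusted p = 0.0475 by edgeR). Its near-copy MIR4435-2HG had a log2 fold change of 0.17 and did not pass (adjusted p = 0.371 by edgeR).

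HIF1A-AS2, antisense to HIF1A, had 151, 208 and 254 normalized counts in siControl and 301, 289 and 354 in siNELFA, without overlap (0.63 with the block, SE 0.17, adjusted p = 0.0491 by edgeR). HIF1A on the other strand had a log2 fold change of -0.46 in the same fit (adjusted p = 0.0326 by edgeR). HIF1A was itself among the genes high in replicate 1, with 18867, 5119 and 5454 normalized counts in siControl. RP11-160E2.6 had 19.5, 43.7 and 119 in siControl and 48.1, 179 and 245 in siNELFA, and CH17-373J23.1 had 13.0, 25.6 and 62.8 against 18.8, 161 and 192, with overlap in both. Under the block they rose by 1.47 and 1.86 (SE 0.25 and 0.33, adjusted p = 0.00675 and 0.00790 by edgeR). RP11-160E2.6 contains a copy of the snoRNA SNORD3D, which had 54.4% as many counts, and CH17-373J23.1 the U1 variant RNVU1-14, which had 68.7% as many, so their counts cannot be told apart from those small RNAs. Both families have many near-identical copies, and both lincRNAs were low in replicate 1.

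RP4-621F18.2 (ENSG00000282057) rose in siNELFA and is the lincRNA with the smallest p between siNELFA and siYAP. It lies on chromosome 1 at 85482281 to 85578250, minus strand, and starts 2511 bases from the start of CYR61, which runs the other way and encodes a secreted matrix protein that is a standard YAP target. It also shares 383 exon bases with DDAH1 on its own strand. It had 249.7, 383 and 352 normalized counts in siControl and 513, 543 and 756 in siNELFA. After siYAP the values were 125, 172 and 189, and after siNELFA+siYAP 443, 365 and 360. All siNELFA libraries lay above, and all siYAP libraries below, those of siControl, and siNELFA+siYAP overlapped siControl.

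Against siControl the log2 fold change of RP4-621F18.2 with the block was 0.88 in siNELFA (SE 0.16, adjusted p = 0.00790 by edgeR) and -1.02 in siYAP (SE 0.17, adjusted p = 0.221 by edgeR). In siNELFA+siYAP, which was fitted without the block, it was 0.23 (SE 0.19, adjusted p = 0.559 by edgeR). Tested directly, siNELFA exceeded siYAP by 1.90 (SE 0.25, adjusted p = 0.297 by edgeR) without the block and by 1.90 (SE 0.13, adjusted p = 5.32e-10 by edgeR) with it. Without replicate 1 the difference was 1.85 (adjusted p = 0.0128 by edgeR). This comparison was added after the data were seen.

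CYR61 and DDAH1 also had their highest group mean in siNELFA and their lowest in siYAP. Against siControl with the block, neither passed in siYAP, at -0.46 (adjusted p = 0.390 by edgeR) and -0.33 (adjusted p = 0.525 by edgeR). Both passed in siNELFA, at 0.87 (adjusted p = 0.00238 by edgeR) and 0.48 (adjusted p = 0.0137 by edgeR). CYR61 had 12445, 10853 and 11680 normalized counts in siControl and 31162, 15853 and 19642 in siNELFA. In siYAP it had 10893, 7165 and 7855, and after both siRNAs 11966, 12759 and 11867. Its difference between siNELFA and siYAP with the block was 1.33 (SE 0.08, adjusted p = 4.16e-11 by edgeR), and that of DDAH1 was 0.81 (SE 0.08, adjusted p = 2.77e-07 by edgeR). DDAH1 had 3454, 2384 and 2454 in siControl and 33661 raw counts over the libraries, against 4625 for RP4-621F18.2. How reads on the shared exon bases were assigned is not given in the sources used here. Where TERC and SCARNA2 overlap a second entry on the same strand, the counts were nearly equal (10262 and 10260, 27333 and 27331). Reads on shared bases were thus counted for both entries there. RP4-621F18.2 and DDAH1 may therefore not be separate measurements, and the part of shared reads in the result was not tested.

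**Figure D3:**
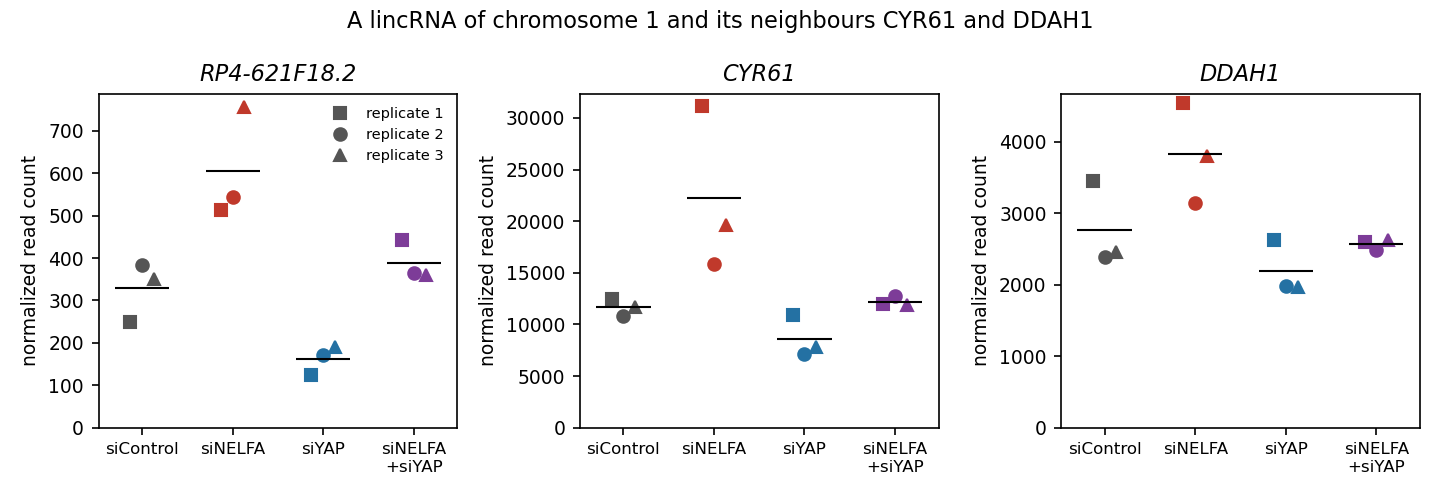
Normalized read counts, on linear axes from 0, of RP4-621F18.2, CYR61 and DDAH1 in the 12 libraries by siRNA group, with squares, circles and triangles for replicates 1 to 3 and lines for group means. RP4-621F18.2 lies at 513 to 756 in siNELFA and at 125 to 189 in siYAP, and siControl and siNELFA+siYAP lie between.

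**Figure D4:**
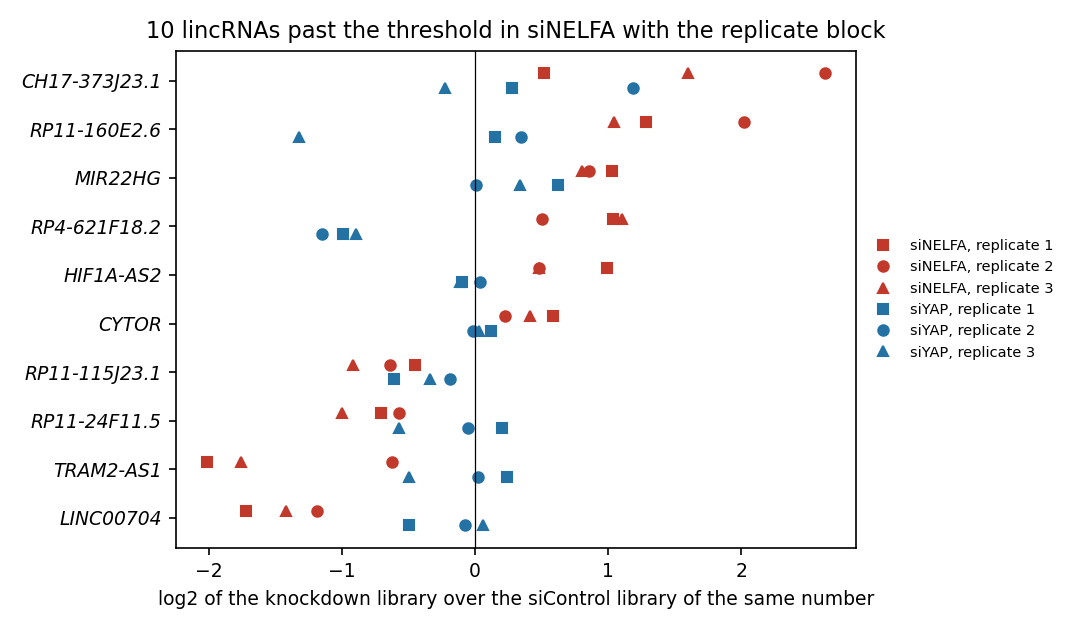
Log2 of each knockdown library over the siControl library of the same replicate number for the 10 lincRNAs past adjusted p 0.05 in siNELFA with the replicate block, siNELFA in red and siYAP in blue, with squares, circles and triangles for replicates 1 to 3. For each gene the 3 siNELFA points lie on 1 side of 0, and for RP4-621F18.2 the 3 siYAP points lie on the other side.

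In siYAP against siControl no lincRNA passed (0 of 269, against 0.00578% of 17296 genes, by edgeR), nor did any with the block (0 of 269, against 0.0173%), by DESeq2 (against 0.0116%) or without replicate 1 (against 0.00559%). At a nominal p there were 1 higher (against 0.752%) and 6 lower (against 0.549%), together 2.6% against 1.3%, and 9 higher and 14 lower with the block (8.55%, against 9.11%). With the block and 1 number left out, 6 passed without number 1 (2.23%, against 1.62%), 1 without number 2 (0.372%, against 0.173%) and 1 without number 3 (0.372%, against 0.105%). The median log2 fold change was -0.03, against 0.00 over all genes. The smallest p-values were those of RP4-621F18.2 and RP11-54H7.4, named after their values were seen. RP11-54H7.4 (GENCODE LINC03061), on chromosome 13 beyond MYO16, had 5553, 5668 and 5979 normalized counts in siControl and 2337, 3574 and 4244 in siYAP, without overlap (log2 fold change -0.76, SE 0.24, adjusted p = 1.00 by edgeR, and -0.80 with the block, adjusted p = 0.311 by edgeR). MALAT1 and NEAT1 had log2 fold changes of -0.34 (SE 0.77) and -0.26 (SE 0.81), and of -0.14 (SE 0.11) and -0.20 (SE 0.08) with the block, where neither passed (adjusted p = 0.671 and 0.544 by edgeR). Without replicate 1 the values were 0.04 and -0.16. NORAD had -0.37 without the block and -0.33 with it and did not pass.

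The direct comparison of siNELFA with siYAP was added after the data were seen. With the block it called more lincRNAs than either single knockdown against siControl, at a share near that of all genes. Without the block 0 of 269 passed (against 0.0116% of 17257 genes, by edgeR), with 5 higher (against 2.69%) and 10 lower (against 2.94%) at a nominal p, together 5.58% against 5.63%. DESeq2 called RP4-621F18.2 and RP11-60A8.1 (0.743%, against 0.452%). At a nominal p the block gave 68 (25.3%, against 28.3%). With the block 40 passed (14.9%, against 15.8%), 17 higher in siNELFA (6.32%, against 8.33%) and 23 lower (8.55%, against 7.44%). With the block and 1 number left out, 37 passed without number 1 (13.8%, against 14.8%), 41 without number 2 (15.2%, against 14.9%) and 19 without number 3 (7.06%, against 5.91%), and 14 of the 40 passed in each of these fits. Without replicate 1, 3 passed (1.12%, against 0.219%), namely RP4-621F18.2, RP11-160E2.6 and CH17-373J23.1. Of the 10 lincRNAs called in siNELFA against siControl, 9 were among the 40, and both comparisons share the siNELFA libraries.

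Of the 23 lincRNAs lower in siNELFA than in siYAP, RP11-60A8.1, a gene on chromosome 5, had the lowest fold change. It had 17.6, 47.5 and 31.5 normalized counts in siNELFA and 95.0, 99.3 and 102 in siYAP, without overlap (-1.64 with the block, SE 0.29). LUCAT1, a lincRNA induced by oxidative stress, had 616, 830 and 744 in siNELFA and 1079, 1128 and 1327 in siYAP (-0.69 with the block, SE 0.10, adjusted p = 4.85e-05 by edgeR). LINC00704 was lower (log2 fold change -1.27) and LINC00511, a cancer-linked lincRNA, likewise (-0.69, with an adjusted p of 0.0741 by edgeR without number 3). MIR503HG, the host of miR-503, was higher by 0.93 (SE 0.20, adjusted p = 0.00254 by edgeR), with 231, 130 and 141 in siNELFA and 161, 55.5 and 65.5 in siYAP. MALAT1 and NEAT1 had log2 fold changes of -0.16 (adjusted p = 0.210 by edgeR) and -0.02 (adjusted p = 0.908 by edgeR) with the block and did not pass. NORAD was higher by 0.44 (SE 0.08), with 8870, 5566 and 5826 against 6250, 4428 and 4195. RP11-60A8.1 was called by DESeq2 as well, and it, LUCAT1, NORAD and MIR503HG were not called against siControl in either knockdown.

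In siNELFA+siYAP against siControl 268 of the 269 were tested, since SNHG18 was removed by the filter on low counts. None passed by edgeR (0 of 268, against 0.428% of 17533 genes), while 28 higher (against 8.27%) and 31 lower (against 10.2%) had a nominal p under 0.05, together 22% against 18.5%, and DESeq2 called 18 (6.72%, against 7.65%). Without siControl replicate 1, 61 passed (22.8%, against 24.4% of 18587 genes), 28 higher (10.4%, against 11.5%) and 33 lower (12.3%, against 12.9%). The share called without siControl replicate 1 was near that of all genes. The double-knockdown libraries could not be paired with siControl by number. Of the 10 lincRNAs called in siNELFA with the block, 9 were among the 61, and RP4-621F18.2 was not. Both comparisons share siControl libraries.

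MALAT1 and NEAT1 had log2 fold changes of -1.40 (SE 0.63, adjusted p = 0.295 by edgeR) and -1.28 (SE 0.61, adjusted p = 0.318 by edgeR) in siNELFA+siYAP. Without siControl replicate 1 these were -0.13 (SE 0.07, adjusted p = 0.183 by edgeR) and -0.06 (SE 0.05, adjusted p = 0.474 by edgeR). For MALAT1 the 3 double-knockdown libraries lay between siControl replicates 2 and 3. RP11-54H7.4 had 4006, 3843 and 3822 normalized counts in siNELFA+siYAP, below all siControl libraries, with -0.57 (SE 0.09, adjusted p = 0.0623 by edgeR) and -0.59 without siControl replicate 1 (adjusted p = 2.31e-06 by edgeR). LINC00704 had 94.2, 97.5 and 101 (-1.15, SE 0.19, adjusted p = 0.0633 by edgeR, and -1.26 without siControl replicate 1, adjusted p = 4.35e-05 by edgeR).

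MIR22HG had 477, 469 and 488 normalized counts in siNELFA+siYAP, above every siControl library. Its log2 fold change was 1.37 (SE 0.36, adjusted p = 0.124 by edgeR), and 1.04 without siControl replicate 1 (adjusted p = 3.77e-05 by edgeR). RP11-24F11.5 had 93.0, 118 and 82.9 (-1.81, SE 0.34, adjusted p = 0.0735 by edgeR, and -1.38 without that library, adjusted p = 3.64e-05 by edgeR). CH17-373J23.1, with the U1 variant, stood at 1.86 (adjusted p = 0.120 by edgeR) and 1.53 without that library. LINC00863 had 97.9, 155 and 127 against 51.9, 56.9 and 58.1 in siControl (1.17, SE 0.24, and 1.14 without siControl replicate 1). LINC00863, TRAM2-AS1, CYTOR, HIF1A-AS2 and RP11-115J23.1 all passed without siControl replicate 1 and did not pass with it.

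**Figure D5:**
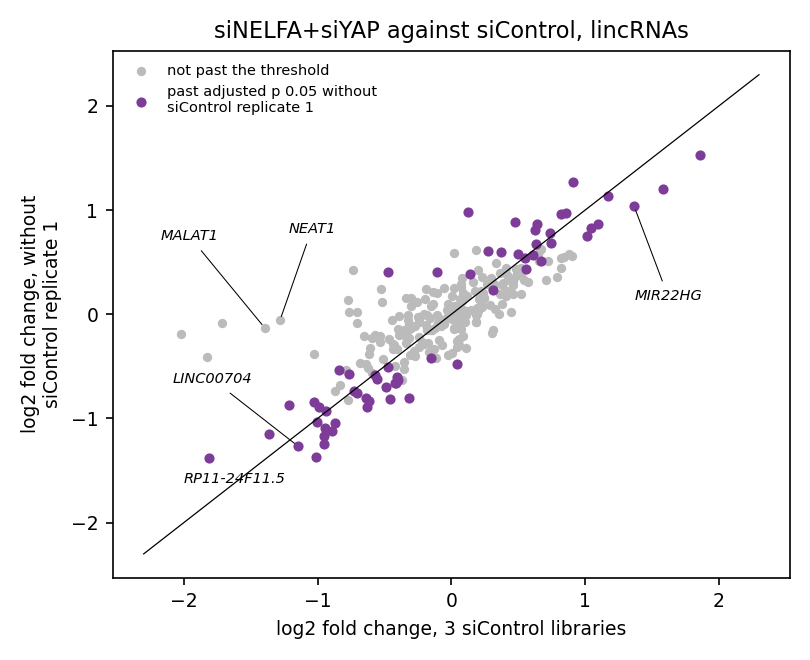
Log2 fold change of 268 lincRNAs in siNELFA+siYAP against siControl, with all 3 siControl libraries (horizontal) and without siControl replicate 1 (vertical), and the line of equality. The 61 lincRNAs past adjusted p 0.05 in the latter fit are purple. MALAT1 and NEAT1 move from -1.40 and -1.28 to -0.13 and -0.06, while LINC00704, MIR22HG and RP11-24F11.5 keep values past 1 in size.

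Groups of lincRNAs by function, chosen from general knowledge, were small. Of 12 microRNA hosts 2 passed in siNELFA with the block, CYTOR and MIR22HG, both higher (against 2.76% of all genes higher and 5.21% called in either direction), and the median of the 12 was -0.05, against 0.01 over all genes. At a nominal p, 3 of the 12 were higher (against 10.5% of all genes) and 3 lower (against 9.78%) in that fit. CYTOR and MIR22HG also passed, higher, in siNELFA+siYAP without siControl replicate 1 (against 11.5% of all genes higher and 24.4% called). The 12 were picked by symbol, so lincRNAs with a host name only in RefSeq were left out. These were RP11-2B6.2 (MIRLET7A1HG), RP11-631N16.2 (MIRLET7IHG), RP11-244M2.1 (MIR924HG), C1orf132 (MIR29B2CHG) and MIR24-2 (MIR23AHG). Of these, RP11-244M2.1 passed in the latter fit, with its double-knockdown libraries below siControl. MIR29A, also outside the list, passed there too. In siNELFA all libraries of RP11-2B6.2 and RP11-631N16.2 lay below siControl (12% of all genes did not overlap). Those of RP11-244M2.1, C1orf132, MIR24-2 and MIR29A overlapped siControl. Of 4 snoRNA hosts 0 passed in siNELFA with the block, while SNHG8 and SNHG25 fell in siNELFA+siYAP without siControl replicate 1, by 0.57 (adjusted p = 0.00274 by edgeR) and 0.89 (adjusted p = 0.0299 by edgeR), and SNHG15 did not pass (against 12.9% of all genes lower). SNHG8 had 236, 228 and 256 normalized counts there, against 504, 360 and 354 in siControl. PVT1 ranged from 1043 to 1481 over the 12 libraries and passed in no comparison. Among 5 cancer-linked lincRNAs (MALAT1, NORAD, LINC00511, FTX and JPX), 0 passed against siControl in any of these fits. That list was matched by symbol and is not complete. CYTOR and LINC00704, which are described above with links to cancer, were outside it. Both passed in siNELFA with the block and in siNELFA+siYAP without siControl replicate 1.

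Proteins of paraspeckles and nuclear speckles were mostly below the threshold in the single knockdowns. Of 20 paraspeckle proteins 1 passed in siNELFA with the block, RBMX, which had a log2 fold change of -0.45 (adjusted p = 0.0319 by edgeR; 5.21% of all genes were called), and 0 in siYAP. Without siControl replicate 1, 12 of the 20 were lower in siNELFA+siYAP (against 12.9% of all genes) and 0 higher (against 11.5%), among them NONO (-0.30) and SFPQ (-0.21). Their median was -0.22, against 0.00 over all genes. Of 20 nuclear speckle proteins, 6 were lower there and 0 higher, beside the same shares of all genes, among them SRSF1 (-0.43) and PNN (-0.37), with a median of -0.11. In the fit with all siControl libraries 0 of either list passed.

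The protein-coding neighbours of NEAT1 and MALAT1 at 11q13.1 were read from the same fits. Of 15 tested, FRMD8 and CDC42EP2 passed in siNELFA with the block, at 0.62 (adjusted p = 0.0197 by edgeR) and 0.60 (adjusted p = 0.0181 by edgeR), against 5.21% of all genes called. In siNELFA+siYAP LTBP3 passed without the block at 1.11 (adjusted p = 0.0423 by edgeR). Without siControl replicate 1, 6 of 14 were higher there (against 11.5% of all genes) and 1 lower (against 12.9%). FRMD8, 9249 bases from NEAT1, had 211, 462 and 552 normalized counts in siControl, so its replicate 1 was low where that of NEAT1 was high. Across lincRNAs, the log2 fold change of the lincRNA and of its nearest protein-coding gene correlated by 0.175 in siNELFA with the block (Pearson, 216 lincRNAs) and by 0.196 in siNELFA+siYAP (213). Both genes of a pair come from the same libraries, and LINC00843, KANTR and AC093323.3 were again paired with themselves. In siNELFA with the block, 150 of the 216 pairs do not overlap in the genome, which leaves these out. Over those 150 the Pearson value was 0.169.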

How the data were processed

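Per the labels, RNA was extracted with TRIzol, and the study's methods describe stranded sequencing of rRNA-depleted total RNA. Deposited raw counts per gene (Ensembl release 87, GRCh38) were used for every test, and the TPM values computed by the authors for levels between genes. The submitters' processing notes name FastQC, cutadapt, STAR, featureCounts, Cufflinks and DESeq2, without versions used here. The options by which reads over overlapping or repeated genes were counted are not given in the sources used here. The 12 FPKM columns were not used. Intervals and p-values cover the spread between libraries, and libraries held 9608145 to 18803104 counts.

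The lincRNAs and gene lists were chosen with earlier results of these data known. Genes were filtered with filterByExpr (minimum count 10) in the 6 libraries compared, scaled by TMM factors and tested with edgeR's quasi-likelihood test (edgeR 4.0.16, limma 3.58.1, R 4.3.3), with Benjamini-Hochberg adjustment over all genes tested. Normalized counts were logged after adding 0.5. Samples were grouped by their labels. Same-numbered libraries of siControl, siNELFA and siYAP deviated together over 12971 genes (correlations of 0.642 to 0.886), while those with siNELFA+siYAP did not (-0.05 to 0.03), so the block was used for the first 3 groups. siNELFA against siYAP, the shift over genes averaging at least 50 counts in the 12 or also in the other 9 libraries, and the block with 1 number left out were added after the data were seen. The scripts were tested on simulated data with the same dispersion for every gene and with no replicate 1 shift and no pairing. That test therefore does not bear on the calls that depend on how replicate 1 is handled.

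Named were MALAT1, NEAT1, up to 5 lincRNAs called each way with or without the block, the 10 highest by TPM, the 5 largest replicate 1 shifts each way, members of the functional groups, the 3 genes on each side of the count limit, list genes past the threshold and nearest neighbours. CYR61, RP11-54H7.4, RP11-60A8.1, and the genes named between the knockdowns or without siControl replicate 1 were chosen after their values were seen. Alternatives were DESeq2 1.42.0, other scalings, other filters, all 12 libraries in 1 fit, limma on log2(TPM + 1) or log2(TPM + 0.1), the block, and leaving libraries out. Gene positions came from GENCODE release 44, and promoters from RefSeq.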

Additional observations from a re-analysis of the deposited data

How the results depend on the processing

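The number of lincRNAs past an adjusted p of 0.05 depended on how replicate 1 was handled. Each count is given with the share of all genes called in the same fit, here or in the Results. Ranges over fits are given with the range of the shares. In siNELFA against siControl it went from 0 to 10 with the replicate block (3.72%, against 5.21%) and 1 with DESeq2 (0.372%, against 0.158%). In siNELFA against siYAP it went from 0 to 40 with the block (14.9%, against 15.8%), 2 with DESeq2 (0.743%, against 0.452%), 1 with no filter on low counts (0.372%, against 0.0188%), 1 with all 12 libraries in 1 fit (0.372%, against 0.0918%) and 3 without replicate 1 (1.12%, against 0.219%). In siNELFA+siYAP against siControl it went from 0 to 18 with DESeq2 (6.72%, against 7.65%), 6 with no filter (2.23%, against 1.19%), 1 with the stricter filter (0.379%, against 0.901%), 1 on log2(TPM + 0.1) (0.373%, against 0.131%) and 61 without siControl replicate 1 (22.8%, against 24.4%). Leaving out 1 library at a time, with no block, gave 0 to 61 there (0% to 22.8%, against 0% to 24.4%). The fit without siControl replicate 3 gave 2 of these counts (0.743%, against 0.709%). In the other comparisons it gave 0, against at most 0.0111% of all genes. With the replicate block and 1 number left out at a time, siNELFA gave 35, 9 and 6, siYAP 6, 1 and 1, and siNELFA against siYAP 37, 41 and 19, without numbers 1, 2 and 3. At a nominal p these fits gave 76 (28.3%, against 26.7%), 36 (13.4%, against 14.6%) and 33 (12.3%, against 14.4%) in siNELFA, 38 (14.1%, against 13.4%), 23 (8.55%, against 7.45%) and 21 (7.81%, against 7.63%) in siYAP, and 63 (23.4%, against 26%), 62 (23%, against 26.6%) and 54 (20.1%, against 17.1%) between the knockdowns. At a nominal p without those fits, siNELFA gave 11, and 50 with the block (18.6%, against 20.2%). It gave 17 on log2(TPM + 1) (6.32%, against 8.91%) and 31 without replicate 1 (11.5%, against 14.3%). Leaving out 1 library, the number was 3 to 16 (1.12% to 5.95%, against 1.85% to 6.36%). For siYAP it was 7, and 23 with the block (8.55%, against 9.11%). It was 4 on log2(TPM + 0.1) (1.49%, against 2.92%) and 18 without replicate 1 (6.69%, against 4.37%). Leaving out 1 library, the number was 3 to 11 (1.12% to 4.09%, against 0.695% to 1.86%). For siNELFA+siYAP it was 59, and 34 on log2(TPM + 1) (12.7%, against 15.9%) and 33 on log2(TPM + 0.1) (12.3%, against 15.5%). Leaving out 1 library, the number was 31 to 88 (11.5% to 32.8%, against 10.1% to 34.8%). For siNELFA against siYAP it was 15, and 68 with the block (25.3%, against 28.3%). It was 25 with all 12 libraries (9.29%, against 8.25%) and 41 without replicate 1 (15.2%, against 13.4%). Leaving out 1 library, the number was 6 to 21 (2.23% to 7.81%, against 2.56% to 6.63%). With the replicate number as a block, siNELFA+siYAP, where the numbers did not pair the libraries, gave 0 adjusted (against 0.0114%) and 42 nominal (15.7%, against 14.5%). The unpaired log2 fold change of MALAT1 ranged from -1.49 to 0.89 in siNELFA, -1.22 to 0.93 in siYAP, -1.78 to -0.13 in siNELFA+siYAP and -1.16 to 0.85 between the knockdowns when 1 library was left out, and that of NEAT1 from -1.34 to 0.90, -1.37 to 0.96, -1.64 to -0.06 and -1.09 to 1.06. Among the lincRNAs called in siNELFA with the block, the unpaired value ranged from 0.89 to 2.29 for RP11-160E2.6, 1.39 to 2.65 for CH17-373J23.1, 0.52 to 1.23 for MIR22HG, -1.96 to -0.92 for TRAM2-AS1 and -1.20 to -0.30 for RP11-24F11.5. Without replicate 1 in either group the unpaired value also turned to 0.04 for MALAT1 in siYAP and to 0.03 for NEAT1 between the knockdowns. With the block it turned to 0.046 for MALAT1 in siYAP without number 1, and to 0.022 and 0.068 for NEAT1 between the knockdowns without numbers 1 and 3. A 1.5-fold limit for the replicate 1 shift gave 64 lincRNAs (23.8%, against 21.3% of all genes tested) in place of 38 (14.1%, against 9.62%). The medians over all genes moved to -0.17 in siNELFA on log2(TPM + 1), and that of the lincRNAs to -0.21. The causes were not tested. With 3 libraries a group, small changes could be missed, above all in the many lincRNAs with counts of 50 to 100. The size of change that could be detected was not estimated.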

Other observations

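Some lincRNAs annotated as such are small structural RNAs. SCARNA2, which guides modification of spliceosomal RNA, and TERC, the RNA template of telomerase, each had a second annotated entry with nearly as many counts, and RNU12, the U12 RNA of the minor spliceosome, had one with 95.2% as many. SNHG25, RP11-160E2.6 and CH17-373J23.1 are longer lincRNAs that share bases with a small RNA. These 6 together had a median log2 fold change of 0.31 in siNELFA with the block (0.01 over all genes), where 2 rose (against 2.76% of all genes). In siNELFA+siYAP without siControl replicate 1 the median was 0.39 (0.00 over all genes), and 3 rose (against 11.5%) and 1 fell (against 12.9%).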
